A study of Mus musculus with 15 samples.

Results

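Ezh2, Smarca2 and Cbfa2t3 encode 3 regulators of chromatin and transcription, and 7 of the 20205 probes on the cDNA arrays carry their symbols: 1 probe for Ezh2, 3 for Smarca2 and 3 for Cbfa2t3. They are 3 of 9834 genes named on the arrays, and the members were chosen with results of the treatment contrast known. The study set treated cells of a mouse line, which the labels call a lymphoid ES line (ES: embryonic stem), against untreated cells of that line. Both RNAs were hybridised together on each of 15 two-colour arrays: 8 carried the treated RNA in Cy5 and 7, the dye swaps, in Cy3. The labels name no genotype, treatment, dose, time or number of cultures, and their protocol text, about organs and pooled control animals, is at odds with a cell line. Whether the arrays came from separate cultures is not stated, so errors measure only the spread between arrays, which may be technical.

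The values are log2 ratios as the authors deposited them, so they show a difference between 2 RNAs and no level of either. Whether the line expressed the defining markers of lymphoid or ES cells can therefore not be read from them. The sources used here do not give the direction of the ratio. It was read as treated over untreated on every array, because values that stand for an empty channel were all above 0 in the Cy5 orientation and all below 0 on the dye swaps. That takes the empty channel to be Cy3 on every array, which the sources do not state. Were it Cy5 on every array, the ratio would be untreated over treated and every sign below would be reversed. Were it the channel of the untreated RNA, the dye swaps would have to be turned. The placeholders cannot decide between these. Signs below follow the reading as treated over untreated, which was chosen after the values were seen. Other values raise doubt about it: Pearson's r over probes had a median of -0.058 over the 56 pairs of arrays of opposite orientation (-0.166 to 0.069) and of 0.083 over the 49 pairs of the same orientation (-0.057 to 0.318). Also, limma called 4 genes for the mean of both orientations and 254 for their difference, and these counts change places if the dye swaps are turned. Differences between the dyes and a wrongly read direction cannot be told apart from these values. Every sign below therefore depends on a direction that is not settled. If the dye swaps were instead to be turned, the estimates would be those given at the end of each gene's paragraph. Between 19213 and 19973 probes per array had a measured value. Arrays 7, 8 and 15 stood apart, with a highest correlation with any other array of 0.034 to 0.083, against 0.126 to 0.318 for the remaining arrays.

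Ezh2 is the catalytic subunit of Polycomb repressive complex 2 (PRC2), which methylates a lysine in the tail of histone H3, a mark of silent genes. Smarca2, also called Brahma, is one of the alternative ATPases of the SWI/SNF (BAF) complex, which uses ATP to move nucleosomes and is known for opposing Polycomb. Cbfa2t3, also called Eto2, binds no DNA by itself: it bridges DNA-binding factors of blood cells such as Tal1 to NCoR, SIN3 and histone deacetylases. Polycomb proteins are known for holding lineage genes silent in ES cells, and Cbfa2t3 for restraining differentiation of blood progenitors.

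The promoter windows of the 3 genes are shown because Ezh2 is known as a target of E2F factors, and the windows differ in motifs common to promoters of cell cycle genes. Each window runs from 250 bases before to 50 bases after a start in RefSeq (GRCm38.p6), and all 3 genes matched by symbol. Capitals mark the E2F motif (TTTGGCGC, TTTCCCGC, TTTGCCGC or TTTCGCGC) and the CCAAT box (CCAAT), each on either strand. In these windows no E2F match overlaps a CCAAT match. The sequences read 5′ to 3′ along the gene's strand.
Ezh2, chr6:47594981-47595280, minus strand: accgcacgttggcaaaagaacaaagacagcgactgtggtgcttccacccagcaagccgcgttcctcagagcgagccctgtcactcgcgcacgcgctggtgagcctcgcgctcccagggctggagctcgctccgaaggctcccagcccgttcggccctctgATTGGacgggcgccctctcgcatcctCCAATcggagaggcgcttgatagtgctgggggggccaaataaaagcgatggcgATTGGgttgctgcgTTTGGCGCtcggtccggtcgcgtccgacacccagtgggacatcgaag
Smarca2, chr19:26604910-26605209, plus strand: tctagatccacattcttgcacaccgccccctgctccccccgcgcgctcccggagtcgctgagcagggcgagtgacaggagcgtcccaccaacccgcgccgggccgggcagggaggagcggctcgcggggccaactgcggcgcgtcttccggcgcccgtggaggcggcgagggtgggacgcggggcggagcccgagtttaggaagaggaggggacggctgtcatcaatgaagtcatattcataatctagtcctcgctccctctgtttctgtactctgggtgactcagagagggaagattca
Cbfa2t3, downstream start, chr8:122678126-122678425, minus strand: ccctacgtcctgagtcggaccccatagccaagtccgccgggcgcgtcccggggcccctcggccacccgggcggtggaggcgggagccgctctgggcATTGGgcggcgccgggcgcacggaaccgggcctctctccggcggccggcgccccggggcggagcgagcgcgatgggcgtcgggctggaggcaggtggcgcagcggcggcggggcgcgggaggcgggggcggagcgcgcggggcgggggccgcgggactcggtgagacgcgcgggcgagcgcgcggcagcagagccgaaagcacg
Cbfa2t3, upstream start, chr8:122699060-122699359, minus strand: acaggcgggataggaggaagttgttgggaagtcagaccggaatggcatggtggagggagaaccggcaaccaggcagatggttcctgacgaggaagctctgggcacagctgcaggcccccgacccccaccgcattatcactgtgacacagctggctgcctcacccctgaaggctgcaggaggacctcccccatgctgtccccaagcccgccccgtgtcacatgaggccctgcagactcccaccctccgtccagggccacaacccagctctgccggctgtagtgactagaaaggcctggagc
The Ezh2 window holds 1 E2F match, TTTGGCGC, which begins at position 4 counted from the start as position 1, and 3 CCAAT boxes. An E2F match is present in 2.26% of the 32851 promoter windows in the table and a CCAAT box in 37.4%. The Smarca2 window holds neither. Of the 2 Cbfa2t3 windows, the downstream one holds 1 CCAAT box and 53 CG dinucleotides. The upstream one holds 10 CG and neither motif. The Ezh2 and Smarca2 windows hold 31 and 29 CG. A match describes letters and says nothing of binding.

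Ezh2 lay above 0 on all 15 arrays. The log2 ratio of its only probe, number 19766, was lowest at 0.046, had a median of 0.347 and reached 0.631 in the Cy5 orientation (8 arrays). On the 7 dye swaps the lowest value was 0.15, the median 0.577 and the highest 0.985. The orientations overlapped, with array 1 the lowest of all and array 13 the highest. The treatment estimate, the mean of both orientations in a fit across all genes (limma), was 0.44 ± 0.07 (SE, n = 15 arrays), a ratio of 1.36. It ranked 92nd from the top of 9720 fitted genes, whose estimates had a median of 0.0054 and an SD of 0.146. Leaving out any one array kept it between 0.40 and 0.47, and without arrays 7, 8 and 15 it was 0.44. With the dye swaps turned it would be -0.08 ± 0.07, so the result rests on the reading of the ratio. No second probe could check it.

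Smarca2 was measured by 3 probes that did not behave alike. Probe 10986 lay above 0 on all 15 arrays: its lowest value was 0.124, its median 0.2675 and its highest 0.563 with the treated RNA in Cy5, and these were 0.17, 0.246 and 0.472 on the dye swaps. Its SD over the arrays was 0.129, and 0.0768% of the 15618 probes with values on all arrays had a lower one, where the median SD was 0.376. A small SD favours a choice from this contrast, so that rank is a description. Its estimate was 0.29 ± 0.05 (SE), a ratio of 1.22. Probe 890 was above 0 on 11 arrays, with a range of -0.221 to 0.661, a median of 0.157 and an estimate of 0.20 ± 0.07. Both of these probes had overlapping values in the 2 orientations.

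Probe 7005 of Smarca2 instead followed the dye. With the treated RNA in Cy5 its lowest value was -0.233, its median 0.279 and its highest 0.532, and 7 of 8 arrays were above 0. On the dye swaps all 7 values were below 0, from -0.471 to -0.005 with a median of -0.254. The orientations overlapped only through array 1, at -0.233; the other Cy5 arrays were at 0.114 or higher. The dye effect, 0.5 times the difference between orientations (treated in Cy5 minus treated in Cy3), was 0.25 ± 0.06 (SE, n = 15; adjusted p = 0.0422 in limma over all probes). For dye effects, which the choice of members did not use, 2.74% of all 19863 probes passed, 1.98% in the direction seen here, and among the 7 probes here this was the only one. The call was lost when any one of 12 of the 15 arrays was left out (adjusted p up to 0.0859), so it sits at the threshold; without arrays 7, 8 and 15 the dye effect was 0.27 (adjusted p = 0.0454). Its treatment estimate was -0.00 ± 0.06, and with the dye swaps turned it would be 0.25.

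Averaged over its 3 probes, Smarca2 was above 0 on 14 arrays, and the estimate of 0.16 ± 0.04 (SE) was between 0.15 and 0.17 with any one array left out and 0.16 without arrays 7, 8 and 15. It was 0.22 ± 0.10 (SD, n = 8) with the treated RNA in Cy5 and 0.10 ± 0.10 (SD, n = 7) on the dye swaps. The SD of this average over the arrays was 0.114, and 0.241% of the 8297 genes with values on all arrays had a lower one. This rank is a description, since the members were chosen from this contrast. It also sets a mean of 3 probes against all genes, and only 2969 of the 9834 named genes have several probes. Probe 10986 exceeded probe 7005 on 11 of 15 arrays, by 0.27 ± 0.37 (SD), and probe 890 on 10 arrays, by 0.09 ± 0.29. On the dye swaps alone probe 10986 exceeded probe 7005 by 0.56 ± 0.19. Across the 15 arrays the probes were hardly related: Pearson's r was 0.03 between probes 890 and 10986 (Spearman's rho -0.06), -0.35 between 890 and 7005 (rho -0.35) and -0.17 between 7005 and 10986 (rho -0.10), given as a description. With the dye swaps turned the gene average would be 0.06 ± 0.04, probe 890 -0.05 and probe 10986 -0.02.

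Cbfa2t3 lay below 0 on most arrays, with probes of very different spread. Probe 233 was below 0 on all 15 arrays. Its lowest value was -0.639, its median -0.365 and its highest -0.218 with the treated RNA in Cy5, and these were -0.636, -0.454 and -0.005 on the dye swaps, where array 12 was the one near 0. The estimate was -0.42 ± 0.06 (SE), a ratio of 0.749, and it was between -0.45 and -0.40 with any one array left out. Probe 5710 was below 0 on 11 arrays and ranged from -1.06 to 0.431 with a median of -0.178, and its estimate was -0.26 ± 0.12. For that probe 5 values lay within 0.0015 (log2) of what 2 whole numbers of at most 6 give as a ratio, shifted by their array's constant, as spots of very low signal give; 3.61 to 16.1% of all values on an array did so, and 1.68 to 2.90% around a shifted constant. Without them the estimate was -0.19. Probe 4592 was below 0 on 8 arrays and ranged from -1.215 to 0.585 with a median of -0.022, and its estimate was -0.06 ± 0.12.

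The spread of probe 4592 over the arrays (SD 0.509) was larger than that of 73.6% of all probes, while that of probe 233 (SD 0.182) was larger than that of 2.13%. Both ranks are a description, since the members were chosen from this contrast. Probe 233 was the lower one on 11 arrays against probe 4592, by 0.34 ± 0.53 (SD), and on 10 arrays against probe 5710, by 0.16 ± 0.43. These mean differences were smaller than their spread between arrays, which is not the error of a mean over 15 arrays. Pearson's r across the 15 arrays was 0.36 between probes 233 and 5710 (rho 0.24), 0.09 between 233 and 4592 (rho 0.05) and -0.12 between 4592 and 5710 (rho -0.04). The average of the 3 probes was -0.25 ± 0.07 (SE), with 12 arrays below 0. It was -0.32 ± 0.26 (SD, n = 8) with the treated RNA in Cy5 and -0.17 ± 0.21 (SD, n = 7) on the dye swaps. With any one array left out it was between -0.27 and -0.22, and without arrays 7, 8 and 15 it was -0.23. With the dye swaps turned the average would be -0.08 ± 0.07, probe 233 0.02, probe 4592 -0.21 and probe 5710 -0.04.

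**Figure D1:**
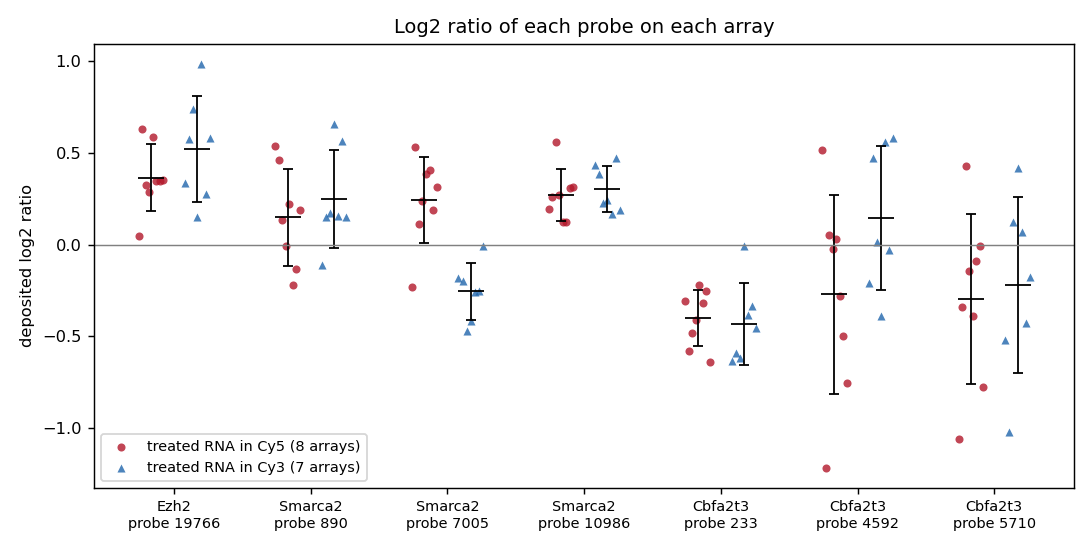
Deposited log2 ratio (vertical axis) of the 7 probes on each array, with circles for the Cy5 orientation (8 arrays), triangles for the dye swaps (7 arrays) and bars for the mean ± SD of each orientation. Ezh2, Smarca2 probe 10986 and Cbfa2t3 probe 233 keep 1 sign on all 15 arrays, while Smarca2 probe 7005 lies mostly above 0 in Cy5 and below 0 in Cy3.

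In order of their estimates the probes ran from Ezh2 (0.44) over Smarca2 10986 (0.29), 890 (0.20) and 7005 (-0.00) to Cbfa2t3 4592 (-0.06), 5710 (-0.26) and 233 (-0.42). No pair of neighbours in this order differed by more than the SD of their difference over the arrays. That SD is the spread of single arrays and not the error of a mean. Neighbours in a sorted order also lie close by construction, so the probes are not shown to be alike. The mean difference was at most 0.18 ± 0.48 (SD, n = 15; Smarca2 890 minus 7005), and Ezh2 exceeded Smarca2 10986 by 0.15 ± 0.31, on 10 of 15 arrays. In the treatment contrast 2 of the 7 probes passed limma's threshold (adjusted p under 0.05 over all probes), Ezh2 and Cbfa2t3 probe 233, where 0.0503% of all probes did (0.0252% above 0, as Ezh2, and 0.0252% below, as Cbfa2t3 probe 233). Of the 3 gene averages Ezh2 passed, above 0, where 0.0412% of all genes did and 0.0206% did above 0. The members were chosen from this contrast, so these counts are a description. Ezh2's probe passed in 9 of the 15 fits that left out 1 array, and not without array 2, 5, 8, 10, 11 or 15 (adjusted p of 0.0516 to 0.0723 in limma). Smarca2 probe 10986 was just outside the threshold (adjusted p = 0.0576) and inside it under 4 other settings. Without arrays 7, 8 and 15 neither the Ezh2 average (adjusted p = 0.0793) nor Cbfa2t3 probe 233 (adjusted p = 0.0883) passed in limma, at estimates of 0.44 and -0.41. The 3 probes with 1 sign on all arrays are a description too, where 0.0768% of the 15618 fully measured probes were above 0 throughout and 0.0256% below. For the dye effect none of the 3 gene averages passed (adjusted p of 0.552 for Ezh2, 0.460 for Smarca2 and 0.555 for Cbfa2t3 in limma), where 2.61% of all genes did.

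**Figure D2:**
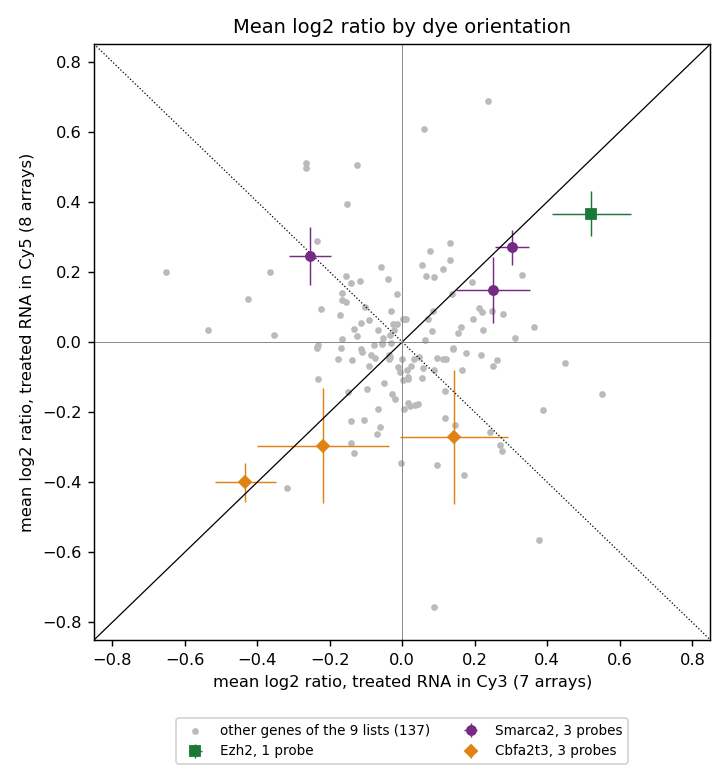
Mean log2 ratio in the Cy5 orientation (vertical axis, 8 arrays) and on the dye swaps (horizontal axis, 7 arrays), with bars for the standard error of each mean. Points on the solid diagonal have the same value in both orientations, as Cbfa2t3 probe 233 and Smarca2 probe 10986 nearly do, and points on the dotted one have opposite values, as Smarca2 probe 7005 does (0.24 in Cy5 and -0.25 in Cy3); grey points are the other 137 genes of the 9 lists.

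More of the other measured PRC2 genes lay below 0 than above, most of them within their SE of 0. Among 10 other PRC2 genes tested, 8 were below 0 and 2 above, and the median was -0.067 against 0.0054 for all 9720 genes, of which 52.0% were above 0. None passed limma's threshold, and 0 had an unadjusted p under 0.05. Phf1, a Polycomb-like partner, was at 0.19 ± 0.16 (SE) and Rbbp7, a histone-binding subunit, at 0.04 ± 0.05. The lowest were Epop at -0.13 ± 0.06 and Rbbp4, the close relative of Rbbp7, at -0.22 ± 0.19. The lowest array of Rbbp4 was at -2.843 and the highest of Phf1 at 2.371, each far from the gene's estimate. Ezh1, the other methyltransferase that can take the place of Ezh2, was at -0.07 ± 0.07 and above 0 on 7 of 15 arrays. The PRC2 median was between -0.12 and -0.02 over all other ways of processing tried.

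More of the other measured SWI/SNF genes lay above 0 than below. The list spans several forms of the complex and holds Smarca4, so not every gene in it is a partner of Smarca2. Among the 19 genes, 13 were above 0 and 6 below, where 52.0% of all genes were above 0. The median of the 19 was 0.061, against 0.0054 for all genes, and between 0.021 and 0.078 over all other ways of processing tried. None passed limma's threshold, and 1 had an unadjusted p under 0.05, against 7.02% of all genes. Arid2, a subunit of the PBAF form, was at 0.18 ± 0.09 (SE), Bcl11b, a T cell transcription factor found in BAF complexes, at 0.17 ± 0.13, and Arid1b, a DNA-binding subunit, at 0.16 ± 0.08. Smarca4 (Brg1), the ATPase that alternates with Smarca2, was at -0.05 ± 0.10, with 6 of 15 arrays above 0. Actl6b, an actin-like subunit known from neurons, was lowest at -0.10 ± 0.06, with a dye effect of -0.28. The ISWI ATPase Smarca5 was at 0.03 ± 0.06.

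The partners of Cbfa2t3 lay on both sides of 0. Among 15 other ETO family, corepressor and deacetylase genes, 6 exceeded 0 and 9 did not; the median, -0.022, was 0.025 on the dye swaps alone, 0.007 with array weights and 0.001 with dim values left out. None passed limma's threshold, and 1 had an unadjusted p under 0.05. Cbfa2t2, a paralogue of Cbfa2t3 measured by 3 probes, was at -0.02 ± 0.07 (SE). The deacetylase-complex genes Mta3, Tbl1x and Rcor1 were highest at 0.33 ± 0.31, 0.20 ± 0.17 and 0.14 ± 0.07, and Mbd3, a subunit of the NuRD complex, was lowest after Cbfa2t3 at -0.23 ± 0.16. Mta3 had values on 11 arrays only, the highest at 2.975. Mbd3 had a mean of 0.20 in the Cy5 orientation and -0.65 on the dye swaps, and its lowest array was at -2.567. Among 17 blood transcription factors that work with ETO proteins, 9 exceeded 0 and 8 did not; the median, 0.019, was -0.006 with array weights and below 0 in each orientation alone (-0.003 in Cy5 and -0.013 in Cy3). The LIM protein Lmo4 was at 0.46 ± 0.14, Cbfb, the partner of Runx proteins, at 0.20 ± 0.11 and Zfp652, a zinc finger partner of Cbfa2t3, at 0.14 ± 0.09. Gata3, a T cell factor, was at -0.22 ± 0.12 and Gfi1b, a repressor protein of erythroid cells, at -0.25 ± 0.08. Gfi1b and Cbfb changed sign between orientations, with means of 0.03 and -0.15 in Cy5 and of -0.54 and 0.55 on the dye swaps. Lmo4, Zfp652 and Gata3 kept their sign. None of the 17 passed limma's threshold (lowest adjusted p = 0.457), and 2 had an unadjusted p under 0.05.

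**Figure D3:**
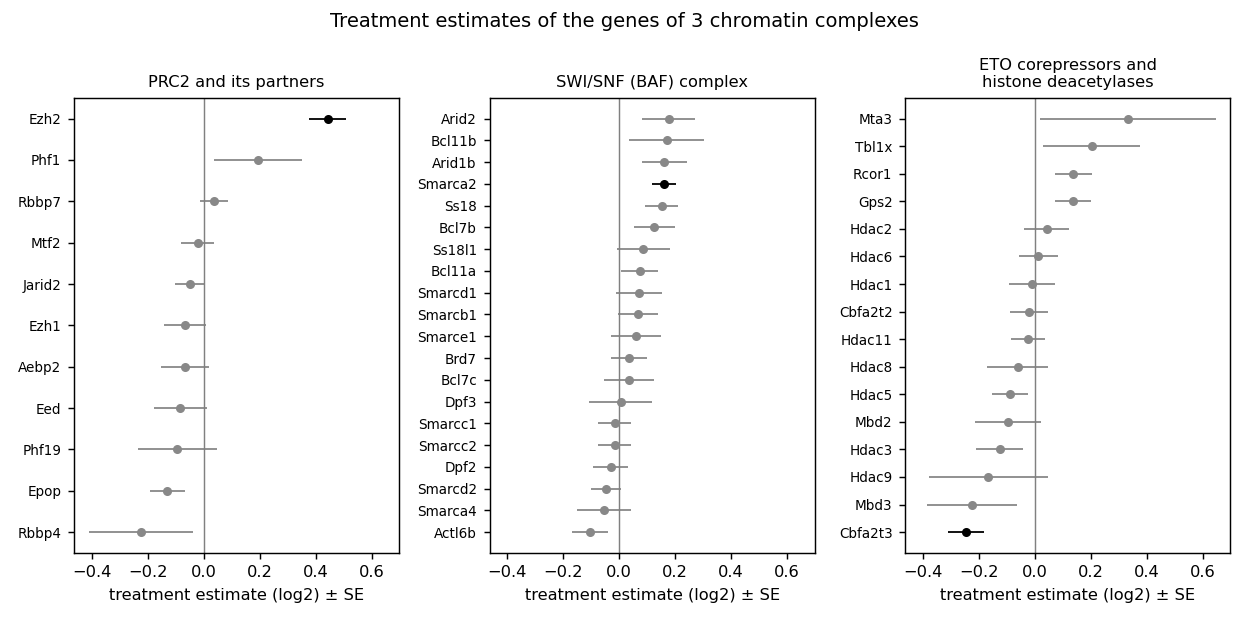
Treatment estimate on the log2 scale with its standard error (horizontal axis) for each tested gene of PRC2, SWI/SNF and the ETO corepressor list, with Ezh2, Smarca2 and Cbfa2t3 in black. Ezh2 stands at the top of its list and Cbfa2t3 at the bottom of its own, which their choice from this contrast favours. Smarca2 lies among the other genes of its list.

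Further chromatin genes were close to 0 as groups. The 15 genes of PRC1, the complex that ubiquitinates histone H2A, had a median of -0.047 with 5 above 0, and 0.035 on the dye swaps alone; its ligase subunit Rnf2 was at 0.21 ± 0.08 (SE), Kdm2b at 0.18 ± 0.13 and Yaf2 at 0.13 ± 0.06, and Phc1 at -0.15 ± 0.08 and Scml4 at -0.33 ± 0.28. Scml4 was above 0 on 8 of 15 arrays, and its lowest array was at -4.392. The 11 trithorax genes had a median of -0.0084, which was 0.030 after scaling, 0.035 after quantile normalization and 0.044 without arrays 7, 8 and 15. Their highest were Dpy30 at 0.12 ± 0.07 with a dye effect of 0.27, Kmt2b at 0.11 ± 0.22 and Ncoa6 at 0.10 ± 0.08, and their lowest Kmt2a at -0.05 ± 0.14 and Wdr5 at -0.05 ± 0.07. Kmt2b reached 3.082 on its highest array. The 15 other remodellers had a median of -0.0016, which was 0.001 after scaling and 0.096 in the Cy5 orientation alone. Bptf was at 0.19 ± 0.15, Cecr2 at 0.18 ± 0.09 and Chd3 at 0.16 ± 0.09, and Baz2a at -0.15 ± 0.12 and Ruvbl1 at -0.17 ± 0.10. The 13 genes of DNA and H3K9 methylation had a median of -0.022. Here the demethylase Kdm4b was at 0.09 ± 0.09, Suv39h2 at 0.06 ± 0.06 and Mbd1 at 0.03 ± 0.06, while Mbd4 was at -0.12 ± 0.15 and the corepressor Trim28 at -0.18 ± 0.06. Over the 9 lists, 0 of 137 genes beside the 3 members passed limma's threshold, and 9 (6.57%) had an unadjusted p under 0.05, close to the 7.02% of all genes.

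Replication genes known as targets of E2F were set beside Ezh2. Among 22 G1/S and E2F genes, 7 exceeded 0 and 15 did not; the median, -0.033, was -0.0030 without arrays 7, 8 and 15 and 0.0054 with the dye swaps turned. None passed limma's threshold, and 1 had an unadjusted p under 0.05. Mybl2 was at 0.26 ± 0.14 (SE), the sliding clamp Pcna at 0.17 ± 0.07 and Gins1 at 0.10 ± 0.06, and the helicase subunits Mcm7 and Mcm6 were at -0.17 ± 0.12 and -0.37 ± 0.32. The lowest array of Mcm6 was at -4.572, far from its estimate. Any of the 4 E2F motifs searched was present in a promoter of 9 of the 20 list genes with a promoter in the table. Those 9 genes had a median of -0.036, with 2 above 0, and the 11 without it -0.061, with 3 above 0.

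The 3 genes did not follow one another from array to array. Pearson's r of the gene averages over 15 arrays was -0.27 between Ezh2 and Smarca2 (rho -0.30), 0.13 between Ezh2 and Cbfa2t3 (rho 0.10) and -0.48 between Smarca2 and Cbfa2t3 (rho -0.37), as a description of arrays that share dyes and both cell states. Ezh2 was higher than Cbfa2t3 on all 15 arrays and higher than Smarca2 on 13, which the choice of the members fixes in part. Among 8296 other genes with values on all arrays, those with the pattern most like Ezh2 were Dcp1b (r = 0.84), Actc1 (r = 0.77) and Sec23b (r = 0.77), although their own estimates were -0.04, -0.17 and -0.12. For Smarca2 they were Ube2a (r = 0.80), Gfm2 (r = 0.77) and Alox5ap (r = 0.76), and for Cbfa2t3 Arrdc1 (r = 0.77), Lrrfip2 (r = 0.77) and Hnrnpf (r = 0.75), with estimates between 0.05 and 0.06 for the last 3. These were the highest of 8296 correlations over 15 arrays each. With the mean of each orientation removed they lay between 0.65 and 0.83.

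Markers of cell types are given as differences, since levels were not measured. Medians were 0.022 over 6 B lymphoid, -0.059 over 6 T and NK cell, -0.012 over 7 general blood, 0.060 over 8 pluripotency and 0.074 over 11 fibroblast markers. Markers of myeloid cells were the most one-sided, with 10 of 11 below 0, none past limma's threshold, a median of -0.10 and a range of -0.30 to 0.0059. Of these 11, 4 had an unadjusted p under 0.05 in limma (Camp, S100a9, C1qb and Ltf, named after their values were seen), against 7.02% of all genes. The list itself was chosen with earlier results of these data known, so its share is a description and no sign of enrichment. S100a9 also had a dye effect of 0.31 (adjusted p = 0.0126 in limma). The myeloid median was -0.04 in the Cy5 orientation and -0.14 on the dye swaps. With the dye swaps turned it would be 0.09, of opposite sign. Unadjusted p-values under 0.05 in limma were also found for 2 general blood markers and 1 pluripotency marker, all above 0. These were Ikzf1 at 0.56 ± 0.25 (SE), Ptprc at 0.19 ± 0.05 and Esrrb at 0.45 ± 0.17. Pou5f1, another pluripotency marker, was at -0.39 ± 0.22. Such p-values were found for 0 of the B lymphoid, T and NK cell and fibroblast markers. No marker of these 5 lists passed limma's threshold. The part of these markers in the values of Ezh2, Smarca2 and Cbfa2t3 was not tested. In these RNA samples fewer cells of a type and less RNA per cell cannot be told apart.

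**Figure D4:**
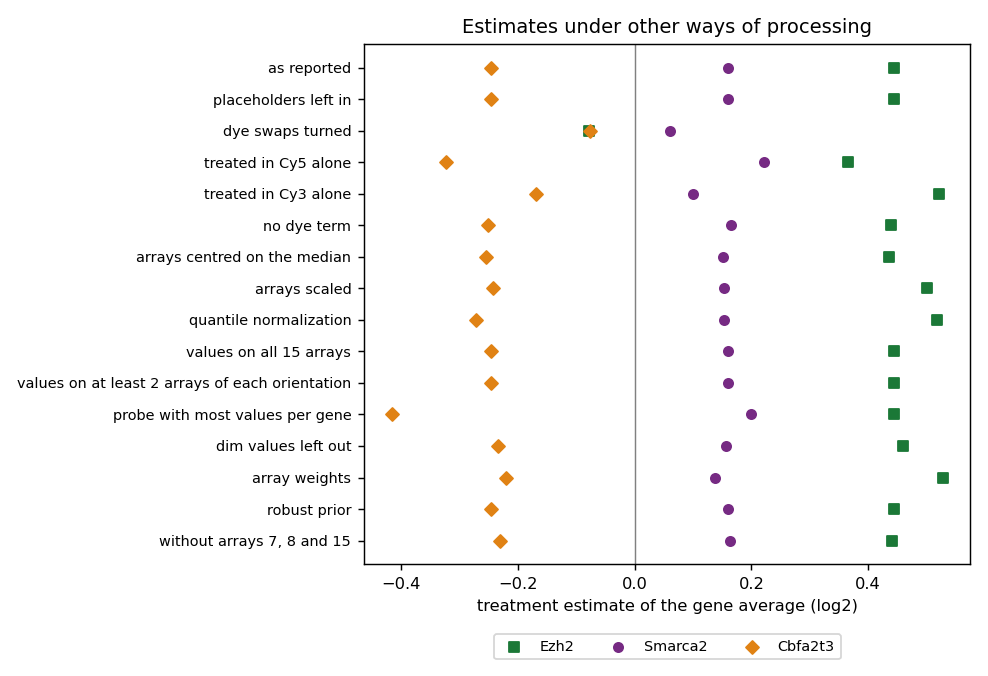
Treatment estimate of the gene averages on the log2 scale (horizontal axis) as reported and under 15 other ways of processing. Of these settings only turning the dye swaps moves Ezh2 across 0, to -0.08, and the others leave it between 0.37 and 0.53. None of them reverses the ratio on all arrays, which would reverse every sign.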

How the data were processed

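The table holds 20205 probes on 15 two-colour arrays as log2 ratios that the authors deposited. Scale, scanner software, background correction and normalization are not given in the sources read here; log2 was inferred from values that equal logs of ratios of small whole numbers. In all, 1999 values with an absolute log2 above 10 were set missing: they equal the log2 of 100000 plus or minus a constant of the array and stand for an empty channel. Symbols came from the platform annotation (13891 probes with 1 symbol, 5 with several, 6309 with none; 13855 identifiers updated through RefSeq, GRCm38.p6), and the probes of a gene were averaged on each array.

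A probe or gene entered the limma fit (version 3.58.1, R 4.3.3) if measured on 4 or more arrays per orientation. Coefficients were the mean over the orientations (treatment estimate) and 0.5 times their difference (dye effect). Tests were two-sided and p-values adjusted by Benjamini-Hochberg over all features; the fit was tested on simulated data. The number of arrays limits the precision, since signal over background is unknown.

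The members, gene lists and tests were chosen with earlier results of these data known. Named are the members, their paralogues, the 3 highest and 2 lowest genes of each of the 9 pathway lists, genes of these lists that passed a test, and the 3 genes most like each member. Smarca1 and Runx1t1 were not analysed here.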

Additional observations from a re-analysis of the deposited data

Results flagged for a closer look

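For 1 probe of Smarca2, 3 genes of the chromatin lists and 1 myeloid marker the 2 dye orientations differed in limma's test. Their values are dye effects, treated in Cy5 minus treated in Cy3 times 0.5. Smarca2 probe 7005 was at 0.25 (adjusted p = 0.0422), with means of 0.24 in Cy5 and -0.25 in Cy3. Scmh1, a PRC1 gene, was at -0.29 (adjusted p = 0.0253), with means of -0.31 and 0.27 in the same order. Actl6b of SWI/SNF was at -0.28 (adjusted p = 0.0341), with means of -0.38 and 0.17. Dpy30, a subunit of the MLL methyltransferase complexes, was at 0.27 (adjusted p = 0.0460), with means of 0.39 and -0.15. S100a9, a myeloid marker, was at 0.31 (adjusted p = 0.0126), with means of 0.13 and -0.50. Scmh1, Actl6b and Dpy30, 3 of 137 list genes, are 2.19%, near the 2.61% of all genes.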

How the results depend on the processing

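Turning the dye swaps exchanges both components by construction. Ezh2 (gene and probe) was then at -0.078 with a dye effect of 0.44, Smarca2 probe 7005 had a dye effect of -0.0046, and Cbfa2t3 probe 233 was at 0.016 with a dye effect of -0.42; 254 genes and 545 probes passed for treatment, 4 and 10 for dye. As reported, 4 genes and 10 probes passed for treatment and 254 and 545 for dye. Genes for treatment were 8 with placeholders left in, 8 with 1 probe per gene (the one with most values, or the lowest probe number in a tie), 11 with array weights and 0 without arrays 7, 8 and 15 (limma; 754 at an unadjusted p under 0.05). Probes were 23 with array weights and 2 without those arrays, and each orientation alone gave 0 genes and 0 probes in limma (unadjusted, 1274 and 2656 in Cy5, 1413 and 2793 in Cy3). Dye effects passed in 676 genes and 1456 probes with array weights, and in 571 and 1031 without arrays 7, 8 and 15. Leaving out each array in turn gave 0 to 7 genes (0 without array 10, with 613 unadjusted, 2 without array 11, most without array 6) and 4 to 13 probes (4 without array 5 or 8, 5 without array 2 or 15, 6 without array 11). It gave 99 to 431 genes and 185 to 874 probes with a dye effect, both lowest without array 6 and highest without array 7; both were also over 1.5 times lower without array 3, 5, 9, 10, 11, 12 or 14, and the probes without array 4 (345). The adjusted p of the Ezh2 gene average in limma ranged from 0.00399 to 0.552 over the alternatives. It missed the threshold without array 10 (0.0568), without array 11 (0.0555), after scaling (0.0855), after quantile normalization (0.0549), without arrays 7, 8 and 15 (0.0793), in each orientation alone and with the swaps turned; its probe, fitted among probes, also missed it without array 2 (0.0579), 5 (0.0593), 8 (0.0538) or 15 (0.0516). Cbfa2t3 probe 233 missed it after quantile normalization (0.0540). The gene-level estimates of Smarca2 and Cbfa2t3 kept their sign under all 15 alternatives (0.06 to 0.22 and -0.42 to -0.08), none of which reversed all arrays. Not all of their single probes did. With the dye swaps turned Smarca2 probes 890 and 10986 were at -0.05 and -0.02, and probe 7005 at 0.25. Cbfa2t3 probe 233 was then at 0.016, and probe 4592 was at 0.14 on the dye swaps alone. With 1 probe per gene Cbfa2t3 was at -0.42 (adjusted p = 0.00791) because probe 233 was taken from a tie of 3 fully measured probes. Smarca2 probe 10986 passed with placeholders left in (0.0200), after scaling (0.0345), with values on all 15 arrays (0.0359) and with array weights (0.0455). The dye effect of Smarca2 probe 7005 missed the threshold after centring (0.23, adjusted p = 0.0590). The cause of these shifts was not tested. Each ratio already pairs treated and untreated RNA on the same array. Dye swaps could not be paired with other arrays, because the arrays form 1 group and share no replicate number. Signal over background is unknown.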
